A study of Mus musculus with 96 samples.

Results

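The genes described here are 29 genes of cholesterol synthesis and of its control by the transcription factor SREBP2, which is made by the gene Srebf2. They were chosen by name and not by a rule on their values, but with earlier results of these data known. All 29 were found among the 35670 genes with any count in a table of mouse liver mRNA. Of these, 5 belong to SREBP2 and its processing, 8 to the mevalonate and prenyl steps, 12 to the steps from squalene to cholesterol, and 4 to uptake control, transport and storage. All 29 also passed the filter on low counts, which left 15772 genes for testing.

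The data were 96 liver libraries from mice aged 12 to 16 weeks, taken every 4 h at 6 zeitgeber times (ZT, with 0 at lights on), with 2 libraries per group and time. There were 8 groups of 12 libraries. In the Bmal1 line, wild-type (WT) and Bmal1 knockout (KO) mice were fed ad libitum (AL) or had food restricted to the night (RF), giving Bmal1 WT AL, Bmal1 WT RF, Bmal1 KO AL and Bmal1 KO RF. In the Cry line, WT mice and mice without both Cry1 and Cry2 were fed in the same ways, giving Cry WT AL, Cry KO AL, Cry WT RF and Cry KO RF. BMAL1 is an activator of the circadian clock and the CRY proteins are its repressors. The crossing of genotype with feeding asks how far daily and mean transcript levels depend on the clock and on the time of eating. No source used here gives the alleles, the strain, the sex or the tissue range of the deletions. Which animal gave which library is not labelled, and the p-values rest on the spread among libraries.

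Cells build cholesterol from acetyl-CoA through mevalonate, isoprenoid units, squalene and a series of sterols, and the same isoprenoids feed side branches such as ubiquinone and protein prenylation. SREBP2 is made as a membrane protein of the endoplasmic reticulum. When sterols are scarce, its escort SCAP carries it to the Golgi, where the proteases of Mbtps1 and Mbtps2 release the part that enters the nucleus and activates nearly every enzyme gene of the pathway. When sterols are plentiful, INSIG1 and INSIG2 hold SCAP back. In rodent liver, cholesterol synthesis is known to run higher at night, when the animals eat.

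SREBP2 binds a short sterol element next to which CCAAT boxes often lie, while BMAL1 with its partner CLOCK binds the E-box CACGTG. Of the 29 genes, 23 had at least 1 RefSeq promoter (build GRCm38.p6) in the table used, 27 promoters in all. The letters searched on both strands, over 250 bases before and 50 after each start, were the sterol element TCACNCCAC, its looser forms TCACNNCAC and ATCACNNCA, CCAAT and CACGTG. The looser forms overlap the first motif. The 250 bases before the start are shown for 4 genes whose levels are described at length below, chosen after their values were seen. Each sequence runs 5′ to 3′ on the gene's strand, with the sterol element, a looser form of it, or CACGTG in capitals.
Hmgcs1 (GRCm38.p6 chr13:119690101-119690350, plus strand): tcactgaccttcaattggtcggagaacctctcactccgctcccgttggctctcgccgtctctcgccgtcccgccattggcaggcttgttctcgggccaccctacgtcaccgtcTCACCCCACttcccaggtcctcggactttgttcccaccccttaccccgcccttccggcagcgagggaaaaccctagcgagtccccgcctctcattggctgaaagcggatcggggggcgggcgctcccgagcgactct
Srebf2 (GRCm38.p6 chr15:82147019-82147268, plus strand): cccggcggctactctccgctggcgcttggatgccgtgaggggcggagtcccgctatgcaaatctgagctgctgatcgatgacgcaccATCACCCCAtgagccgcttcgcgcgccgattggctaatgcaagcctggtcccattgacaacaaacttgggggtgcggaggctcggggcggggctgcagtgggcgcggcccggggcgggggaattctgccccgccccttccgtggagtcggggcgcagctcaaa
Hsd17b7 (GRCm38.p6 chr1:169969206-169969455, minus strand): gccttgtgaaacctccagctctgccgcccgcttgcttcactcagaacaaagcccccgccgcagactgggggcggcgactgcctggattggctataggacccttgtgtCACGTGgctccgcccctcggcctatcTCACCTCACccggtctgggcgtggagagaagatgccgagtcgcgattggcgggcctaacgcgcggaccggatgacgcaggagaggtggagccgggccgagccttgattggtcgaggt
Insig1 (GRCm38.p6 chr5:28071162-28071411, plus strand): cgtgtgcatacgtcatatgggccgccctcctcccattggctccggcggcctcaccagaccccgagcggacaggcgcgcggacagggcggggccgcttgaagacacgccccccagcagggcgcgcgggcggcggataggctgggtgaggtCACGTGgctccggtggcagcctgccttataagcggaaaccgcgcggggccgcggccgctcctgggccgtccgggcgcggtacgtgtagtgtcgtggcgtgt

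Hmgcs1 was the member whose promoter held TCACNCCAC, starting at position -137 from the start, a motif found in 1.24% of all 32851 promoters. TCACNNCAC, found in 3.77% of promoters, was in those of Hmgcs1, Hsd17b7 at -117, Msmo1 at -92 and Dhcr7 at -130. ATCACNNCA, found in 2.77%, was in those of Srebf2 at -163, Cyp51 at -89 and Msmo1 at -93. CCAAT was in 19 of the 27 promoters, against 37.4% of all promoters, and these belonged to 19 of the 23 genes. CACGTG, found in 7.15%, was in those of Hsd17b7 at -143, Insig1 at -101, Dhcr7, Sc5d and Scap. These matches describe letters in a window and were not tested as binding sites.

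Libraries held 1478963 to 35568856 counts (median 25422366), and the lowest count of any member in any library was 10. Levels below are CPM (the counts of a gene relative to the scaled total of its library), and compare libraries, not genes. Arntl, the gene of BMAL1, had 0.272 to 35.3 CPM in Bmal1 WT AL and 1.01 to 45.0 CPM in Bmal1 WT RF (lowest to highest library), against 9.71 to 15 in Bmal1 KO AL and 13.0 to 21.2 in Bmal1 KO RF. Cry1 had 5.95 to 51.4 and 6.33 to 71.4 CPM in Cry WT AL and RF against 5.38 to 9.95 and 5.88 to 12.7 in the knockouts, and Cry2 had 18.9 to 56.8 and 21.9 to 60.7 against 17.8 to 26.6 and 13.1 to 32.0. None of the 3 transcripts was absent from its knockout, and the ranges overlapped those of WT; no source used here gives the deleted parts, so these levels do not check the labels. What they show is that Arntl, which ran below 2 CPM at its lowest in WT, kept to a narrow range in Bmal1 KO. That held in Cry KO too, at 5.99 to 13.9 CPM under AL and 6.17 to 15.9 under RF, so it is not particular to Bmal1 KO. A set of 7 libraries stood apart, with Saa1 over 5000 CPM, Isg15 over 50 or Ctrb1 over 40: 2 each of Bmal1 KO RF, Cry KO RF and Cry WT AL, and 1 of Cry WT RF. Each group came as 2 numbered series of 6 libraries, and the series of Cry KO AL differed in 8799 genes (55.8% of those tested), among them 9 members, against 1650 genes in Bmal1 WT AL and 22 to 388 in the other groups. All 6 hepatocyte markers were present, and their summed level had a median of 35900 to 92800 CPM by group.

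Divided by exon length, the highest levels over the WT AL groups of both lines belonged to Insig1 at 148 CPM per kb, the sterol desaturase gene Sc5d at 125 and Ebp at 93.7, followed by Hmgcs1 at 51.6 and Cyp51 at 41.2. The lowest was the site-2 protease gene Mbtps2, below the prenyl synthase gene Ggps1 at 2.14. Mylip, Fdps, Lbr, Ggps1 and Mbtps2 made up the lowest 5, from 3.69 down to 1.07. Fdps, Tm7sf2 and Mbtps2 each overlap a second coding gene on the same strand. Fdft1, Cyp51, Ggps1, Npc1, Lbr and Mvd overlap a coding gene on the other strand. Acat2 has a near copy, Acat3. Since no source used here gives the strand setting of the counting, reads of such neighbours may be shared.

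Loss of BMAL1 was compared with WT first, on levels averaged over the 6 times. Hmgcs1, which makes the HMG-CoA from which mevalonate is formed, and Lss, which folds squalene epoxide into the first sterol, rose 2.13-fold and 1.93-fold in Bmal1 KO liver under AL. Under AL, 7 of 29 members rose and 1 fell at an adjusted p under 0.05 (quasi-likelihood test of edgeR, Benjamini-Hochberg adjusted, as for every adjusted p below). Of all genes, 24.4% were called, 13.7% higher and 10.7% lower, so the share of members called in either direction lay near that of all genes, and the share that rose was 24.1%. Under RF, 10 members rose and 2 fell, or 34.5% and 6.9%, against 10.5% and 10% of all genes (20.6% in either direction). The members' median log2 change was 0.25 under AL and 0.26 under RF, against 0.02 and 0.01 for all genes.

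**Figure D1:**
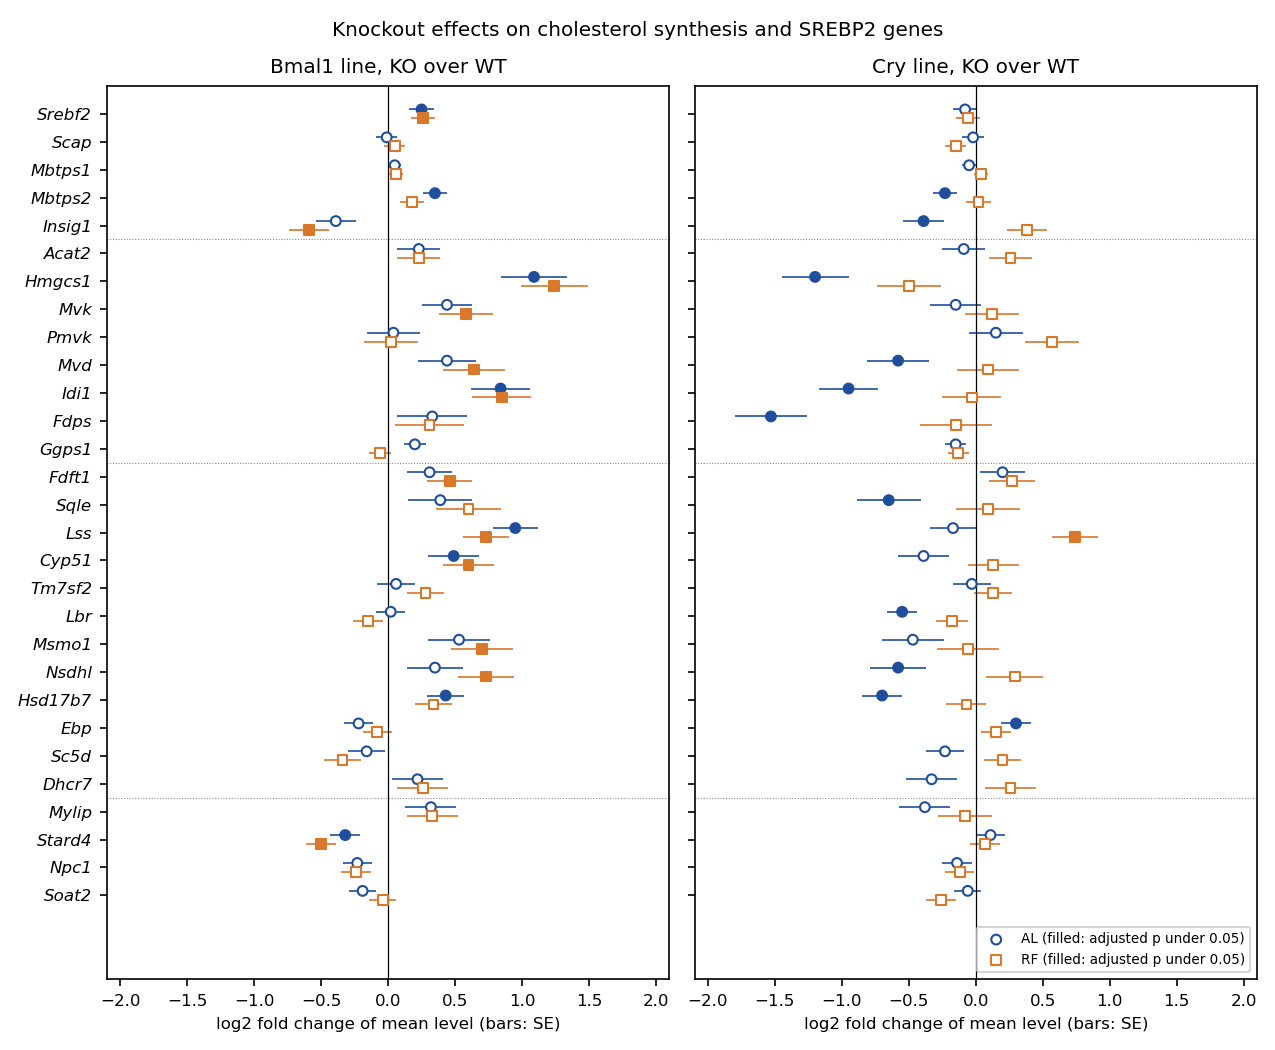
Log2 knockout effect on the mean level of each of the 29 genes, ± SE, in the Bmal1 line and the Cry line, under AL (blue circles) and RF (orange squares); filled symbols have an adjusted p under 0.05. In the Bmal1 line 18 (AL) and 16 (RF) of the 20 enzymes lie right of 0, with Hmgcs1 at 1.09 and 1.24; in the Cry line the AL values lie mostly left of 0, with Fdps at -1.53, and the RF values around 0.

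Among the mevalonate enzymes, 2 of 8 rose under AL and 4 of 8 under RF, with none falling in either. Hmgcs1 ran from 77.8 CPM over a median of 236 to 467 in Bmal1 WT AL, and from 231 over 442 to 727 in Bmal1 KO AL. Under RF it ran from 56.4 over 199 to 470 in WT and from 93.4 over 319 to 875 in KO. The KO libraries were thus shifted upward but overlapped the WT libraries in both feedings. The difference was 1.09 ± 0.25 log2 (SE, adjusted p = 0.000572) under AL and 1.24 ± 0.25 (9.78e-05) under RF, with both KO libraries above both WT libraries at 4 and 3 of the 6 times.

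Idi1, which isomerises the basic isoprenoid unit, ran from 37.5 over 59.9 to 83.2 CPM in Bmal1 WT AL and from 54.5 over 108 to 194 in Bmal1 KO AL. Under RF it ran from 18.9 over 44.5 to 85.9 in WT and from 26.1 over 72.6 to 208 in KO. Its ranges overlapped too, and it rose by 0.84 ± 0.22 log2 (adjusted p = 0.00323) and 0.85 ± 0.22 (0.00336). The kinase gene Mvk and the decarboxylase gene Mvd rose under RF, by 0.58 ± 0.20 (0.0272) and 0.64 ± 0.23 (0.0332). Under AL their values were 0.44 ± 0.19 (0.0859) and 0.44 ± 0.22 (0.144), and the difference between feedings was not called for any member. Acat2, Pmvk, Fdps and Ggps1 passed in neither feeding, with values between -0.06 and 0.33.

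From squalene on, 3 of 12 genes rose under AL and 5 under RF, again with none falling. Lss ran from 52.2 over 69.4 to 105 CPM in Bmal1 WT AL and from 66.3 over 145 to 257 in Bmal1 KO AL. Under RF it ran from 45.3 over 69.3 to 123 in WT and from 43.1 over 102 to 249 in KO. It rose by 0.95 ± 0.17 log2 (adjusted p = 2.83e-05), with both KO libraries above both WT libraries at 5 of 6 times, and by 0.73 ± 0.17 (0.00109) under RF, where that held at 2 of 6. The lanosterol demethylase gene Cyp51 rose in both feedings, by 0.49 ± 0.19 (0.0496) and 0.60 ± 0.19 (0.0175). Hsd17b7, a sterol ketone reductase, rose by 0.43 ± 0.14 under AL (0.022) and had 0.34 ± 0.14 (0.0874) under RF. The C4-demethylation genes Nsdhl and Msmo1 and the squalene synthase gene Fdft1 rose under RF, by 0.73 ± 0.21 (0.00844), 0.70 ± 0.23 (0.0231) and 0.46 ± 0.17 (0.045). Sqle, Tm7sf2, Lbr, Ebp, Sc5d and Dhcr7 passed in neither feeding, and the estimates of Ebp and Sc5d were below 0 in both.

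The control genes moved less, and not in 1 direction. Srebf2 itself ran from 49.8 over 75.4 to 87.1 CPM in Bmal1 WT AL and from 63.2 over 83.5 to 111 in Bmal1 KO AL, and under RF from 42.7 over 63.5 to 75.8 in WT and from 51.4 over 71.6 to 102 in KO. It rose by 0.25 ± 0.09 log2 (adjusted p = 0.0287) and 0.26 ± 0.09 (0.0229), in overlapping ranges. Mbtps2 rose under AL by 0.35 ± 0.09 (0.00254), from 10.1 ± 1.29 to 12.9 ± 1.52 CPM (SD, n = 12), and both KO libraries lay above both WT libraries at all 6 times. Insig1 went the other way from the enzymes that SREBP2 is known to activate along with it. It ran from 304 over 410 to 541 CPM in Bmal1 WT RF and from 103 over 242 to 528 in Bmal1 KO RF, and fell by 0.59 ± 0.15 log2 (0.00355). Under AL it ran from 328 over 397 to 805 in WT and from 183 over 334 to 499 in KO, a difference of -0.39 ± 0.15 (0.0538). Scap and Mbtps1 had values between -0.01 and 0.06 and passed in neither feeding.

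Of the transport genes, Stard4, whose protein moves cholesterol between membranes, fell in both feedings. It ran from 115 over 168 to 271 CPM in Bmal1 WT AL and from 86.6 over 140 to 198 in Bmal1 KO AL, and under RF from 134 over 172 to 241 in WT and from 48.6 over 119 to 195 in KO. The falls were -0.32 ± 0.11 log2 (adjusted p = 0.021) and -0.50 ± 0.11 (0.000256), again in overlapping ranges. Mylip, which marks lipoprotein receptors for degradation, the lysosomal exporter gene Npc1 and the sterol esterifying enzyme gene Soat2 passed in neither feeding. No member had ranges that did not overlap between KO and WT in either feeding, against 1.9% of all genes under AL and 1.35% under RF. The summed hepatocyte markers were lower in Bmal1 KO, at 25700 over 35900 to 44800 CPM against 63100 over 89700 to 118000 in WT under AL, and 31400 over 40400 to 45200 against 42200 over 76700 to 89400 under RF. Of the 6 markers 2 and 1 were called lower. Their median change was -0.24 log2 under AL and -0.14 under RF, less than the fall of the sum. Their part in the results was not tested. In bulk liver, fewer cells of a type and less RNA per cell cannot be told apart.

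When series was treated as a random effect (limma-voom), 1 member was called per feeding, Lss under AL (0.92, adjusted p = 0.0299) and Stard4 under RF (-0.53, 0.031), with the other directions as before. Without the filter on low counts 15 members were called under AL, 13 higher and 2 lower. Leaving out 1 series of 6 libraries left 4 to 5 members called under AL and 5 to 8 under RF; Hmgcs1 and Lss were called each time in both feedings, and Insig1, Idi1 and Stard4 each time under RF.

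The same enzymes were then compared by time of day, since an average can hide a shift. Under AL, 18 of the 20 enzyme genes had a higher mean in Bmal1 KO than in WT at ZT 0, and 18 at ZT 16, with median log2 differences of 0.60 and 1.01. At ZT 8, 3 of the 20 were higher and the median was -0.36. Under RF the gap was widest at ZT 16, where 17 of 20 enzymes had both KO libraries above both WT libraries and the median difference was 1.52, while at ZT 12 the median was -0.32. Hmgcs1 at ZT 16 had 77.8 and 123 CPM in Bmal1 WT AL against 412 and 722 in Bmal1 KO AL, and 56.8 and 56.4 in Bmal1 WT RF against 421 and 875 in Bmal1 KO RF. Counts near these also arose between WT groups. At ZT 16 under RF, 15 of 20 enzymes had both Cry WT libraries above both Bmal1 WT libraries and 2 both below (median 0.53). At ZT 0 under AL, 1 had both above and 17 both below (median -0.33). These counts by time are a description of pairs of libraries. The enzymes move together within a library, so they are not separate evidence: 15 of 20 had their lowest level of the whole Bmal1 KO RF group in 1 library, that of series 4 at ZT 12, and 12 had their lowest Bmal1 WT RF level in that of series 4 at ZT 16.

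**Figure D2:**
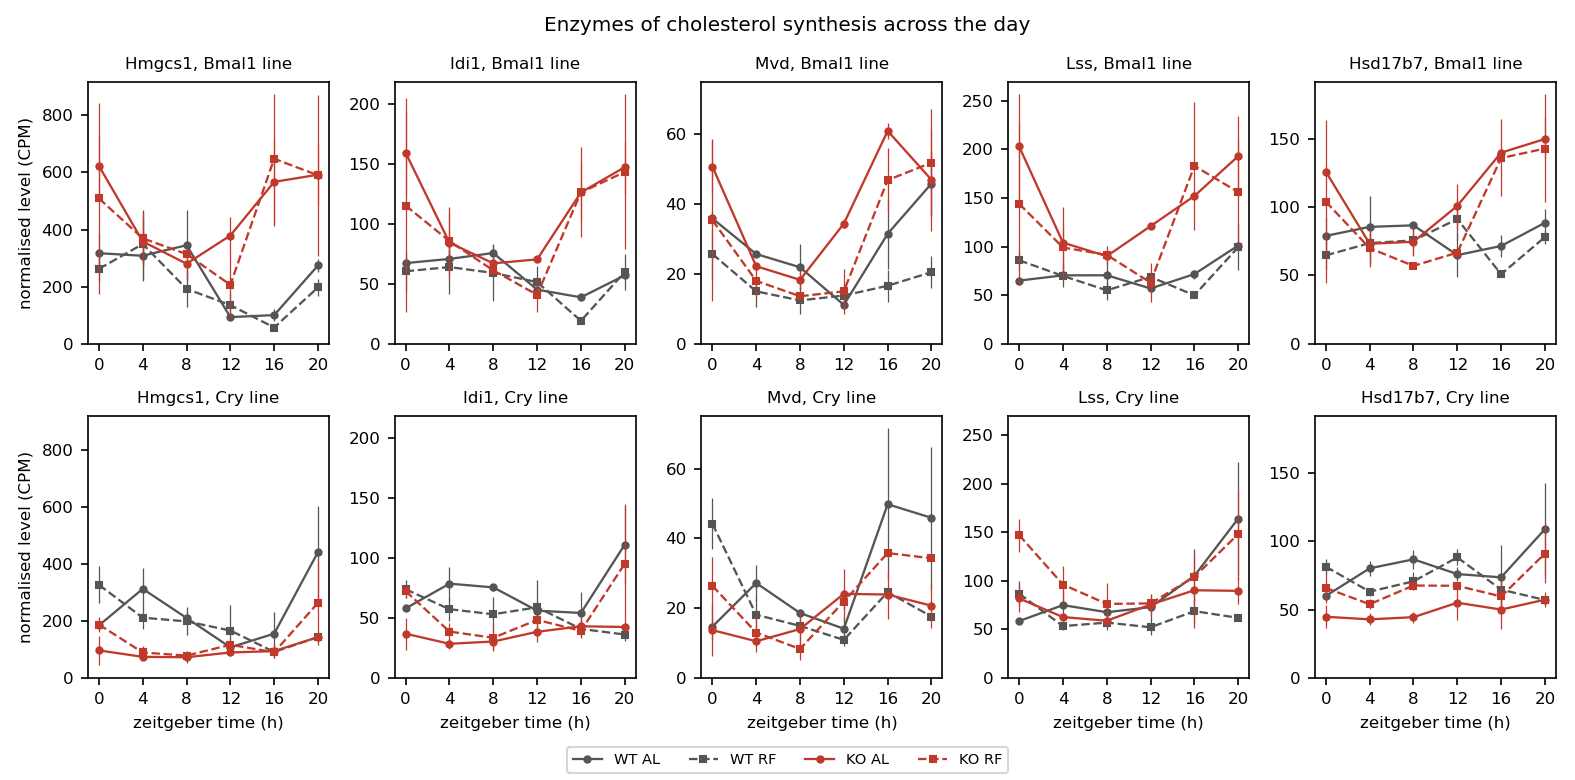
Levels in CPM of Hmgcs1, Idi1, Mvd, Lss and Hsd17b7 by zeitgeber time in the Bmal1 line and the Cry line, WT in grey and KO in red, AL as solid and RF as dashed lines; points are means of 2 libraries and bars span both. Bmal1 KO lies above WT mainly from ZT 16 to ZT 0, with Hmgcs1 means of 567 and 648 CPM at ZT 16 against 100 and 56.6 in WT, and Cry KO AL lies below Cry WT AL at most times.

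Loss of both CRY proteins had the opposite direction under AL. Fdps, the farnesyl diphosphate synthase gene, fell to 0.345 times its Cry WT AL level and Hmgcs1 to 0.436 times. Under AL 10 of 29 members fell and 1 rose, or 34.5% and 3.45%, against 13.3% and 19.7% of all genes (33.0% in either direction). The members' median was -0.23 log2 against -0.03 for all genes. Under RF 1 member rose and none fell, against 3.28% and 3.02% of all genes (6.3% in either direction), and the median was 0.07 against -0.03. At an unadjusted p under 0.05 the RF count was 3 higher and 2 lower.

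Of the mevalonate enzymes 4 of 8 fell under AL and none rose. Hmgcs1 ran from 80.5 over 210 to 604 CPM in Cry WT AL and from 46.0 over 88.1 to 160 in Cry KO AL, with both KO libraries below both WT libraries at 5 of 6 times. The fall was -1.20 ± 0.25 log2 (adjusted p = 0.0002). Under RF it ran from 70.8 over 161 to 391 in WT and from 61.9 over 104 to 411 in KO, a difference of -0.50 ± 0.24 (0.251). Fdps is a gene of low counts here, and its WT AL level was set partly by a few libraries. It ran from 9.01 over 12.4 to 47.0 CPM in Cry WT AL and from 2.72 over 4.78 to 10.2 in Cry KO AL, a fall of -1.53 ± 0.27 (2.13e-05) with both KO libraries below both WT libraries at all 6 times. Under RF its ranges were 5.65 over 8.61 to 18.6 and 3.07 over 8.35 to 16.1, a difference of -0.15 ± 0.27 (0.851).

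Idi1 ran from 36.9 over 67.8 to 143 CPM in Cry WT AL and from 22.9 over 36.3 to 51.0 in Cry KO AL, and fell by 0.95 ± 0.22 log2 (adjusted p = 0.000899). Under RF the ranges were 30.9 over 47.8 to 81.3 and 22.1 over 45.3 to 145, a difference of -0.03 ± 0.22 (0.977). Mvd fell under AL by 0.58 ± 0.23 (0.0445), from 28.4 ± 20 to 17.8 ± 8.48 CPM (SD, n = 12). Under RF its levels were 21.7 ± 12.1 and 23.3 ± 11.6 CPM. The groups of each of these genes overlapped.

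From squalene on, 4 of 12 genes fell under AL and 1 rose. Hsd17b7 ran from 49.7 over 77.5 to 143 CPM in Cry WT AL and from 35.5 over 47.9 to 67.7 in Cry KO AL, a fall of -0.70 ± 0.15 log2 (adjusted p = 0.000218), with both KO libraries below both WT libraries at 5 of 6 times. Under RF its ranges were 56.4 over 69.3 to 94.2 and 48.1 over 67.7 to 113, a difference of -0.07 ± 0.15 (0.875). Lbr, a sterol reductase that is also a receptor of the nuclear lamina, fell by 0.55 ± 0.11 (0.000248), from 12.7 ± 1.77 to 8.53 ± 2.77 CPM (SD, n = 12). The squalene epoxidase gene Sqle fell by 0.65 ± 0.24 (0.0334) and Nsdhl by 0.58 ± 0.21 (0.0278), while the isomerase gene Ebp rose by 0.30 ± 0.11 (0.0364). Lss was the one member called under RF. Under AL it ran from 57.9 over 73.9 to 222 CPM in WT and from 51.6 over 66.6 to 129 in KO, a difference of -0.17 ± 0.17 (0.467), and under RF from 43.8 over 59.3 to 99.8 and from 54.9 over 102 to 194, a rise of 0.74 ± 0.17 (0.00353) with both KO libraries above both WT libraries at 5 of 6 times.

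The control genes Insig1 and Mbtps2 fell under AL, by 0.39 ± 0.15 (adjusted p = 0.0459) and 0.23 ± 0.09 (0.0397). Insig1 ran from 263 over 423 to 853 CPM in Cry WT AL and from 226 over 342 to 621 in Cry KO AL, and under RF from 187 over 398 to 575 in WT and from 249 over 474 to 735 in KO, where the difference was 0.38 ± 0.15 (0.148). Srebf2 had 70.3 ± 11.1 and 66.3 ± 8.22 CPM under AL and 75.0 ± 11.1 and 72.4 ± 13.3 under RF (SD, n = 12), differences of -0.08 ± 0.09 (0.512) and -0.06 ± 0.09 (0.809). None of the 4 transport genes passed in either feeding: Stard4 had differences of 0.11 ± 0.11 (0.427) and 0.07 ± 0.11 (0.825). No member had ranges that did not overlap in either feeding, against 0.488% and 0.266% of all genes.

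Cry KO AL held 2 series that differed in many genes, and the members were read with each left out. Without series 2 of Cry KO AL 7 members were called, Ebp turned to -0.14 and Mbtps2 to 0.03, and Lbr had -0.22 (adjusted p = 0.261). Between series 1 and series 2 of Cry KO AL, Mylip had 14.3 ± 1.46 and 4.70 ± 1.06 CPM, Lbr 11.0 ± 1.45 and 6.09 ± 0.664, Mbtps2 11.7 ± 0.917 and 7.55 ± 0.483, and Ebp 171 ± 25.6 and 288 ± 37.9 (SD, n = 6). Summed endothelial markers moved with this split, at 410 to 466 CPM in series 1 and 69.2 to 139 in series 2, as did Kupffer cell markers at 280 to 598 and 82.2 to 201 and stellate cell markers at 290 to 342 and 144 to 243. Against Cry WT AL, 3 of 6 stellate and 3 of 4 interferon response markers were called lower in Cry KO AL, and 3 of 5 cholangiocyte markers higher and 1 lower. Their summed levels ran from 181 over 368 to 382 CPM in Cry WT AL and 144 over 266 to 342 in Cry KO AL for stellate, from 57.9 over 66.8 to 604 and 41.6 over 47.6 to 63.5 for interferon response, and from 31.1 over 41.8 to 55.9 and 30.9 over 62.1 to 106 for cholangiocyte markers. No marker of these 5 lists was at 0 in all libraries of either group, and under RF 3 of 4 interferon response markers were called lower as well. The part of these markers in the results was not tested. Hmgcs1, Fdps and Hsd17b7 were called whichever series was left out. Without series 2 of Cry WT AL 5 members were called; 15 of the 20 enzymes had their highest Cry WT AL level in 1 library of that series, at ZT 20.

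Without the 7 libraries that stood apart, a choice made after the data were seen, 6 members were called under AL: Hmgcs1, Fdps, Idi1, Hsd17b7 and Lbr lower and Ebp higher. With series as a random effect 2 were called, Lbr (-0.51, adjusted p = 0.0196) and Fdps (-1.50, 0.0387), and none under RF, where the Lss call was also lost without series 9 of Cry WT RF (0.65, 0.101) or series 5 of Cry KO RF (0.64, 0.114). Without the filter on low counts 4 were called under RF, 3 higher and 1 lower.

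The knockout effects of the lines were then set against each other. Under AL the Cry effect was lower than the Bmal1 effect in 15 of 29 members and higher in 2, against 20.2% and 20.7% of all genes (40.8% in either direction), which for the lower side is 51.7% of members. The median difference was -0.54 log2 against -0.05 for all genes. It was widest for Hmgcs1 (-2.29 ± 0.35 log2, adjusted p = 7.3e-07), Fdps (-1.86 ± 0.37, 8e-05) and Idi1 (-1.79 ± 0.31, 1.12e-05). Hsd17b7, Lss, Sqle, Mvd, Msmo1, Nsdhl, Cyp51, Mylip, Mbtps2, Lbr, Ggps1 and Srebf2 followed, with -1.14 to -0.33. Ebp (0.52 ± 0.16, 0.00744) and Stard4 (0.43 ± 0.15, 0.0182) went the other way. Under RF 2 members were called lower, Hmgcs1 (-1.75 ± 0.35, 0.000138) and Idi1 (-0.88 ± 0.31, 0.0474), and 2 higher, Insig1 (0.96 ± 0.22, 0.000849) and Stard4 (0.56 ± 0.15, 0.00496), which is near the share of all genes (15.2%, 7.82% lower and 7.39% higher).

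**Figure D3:**
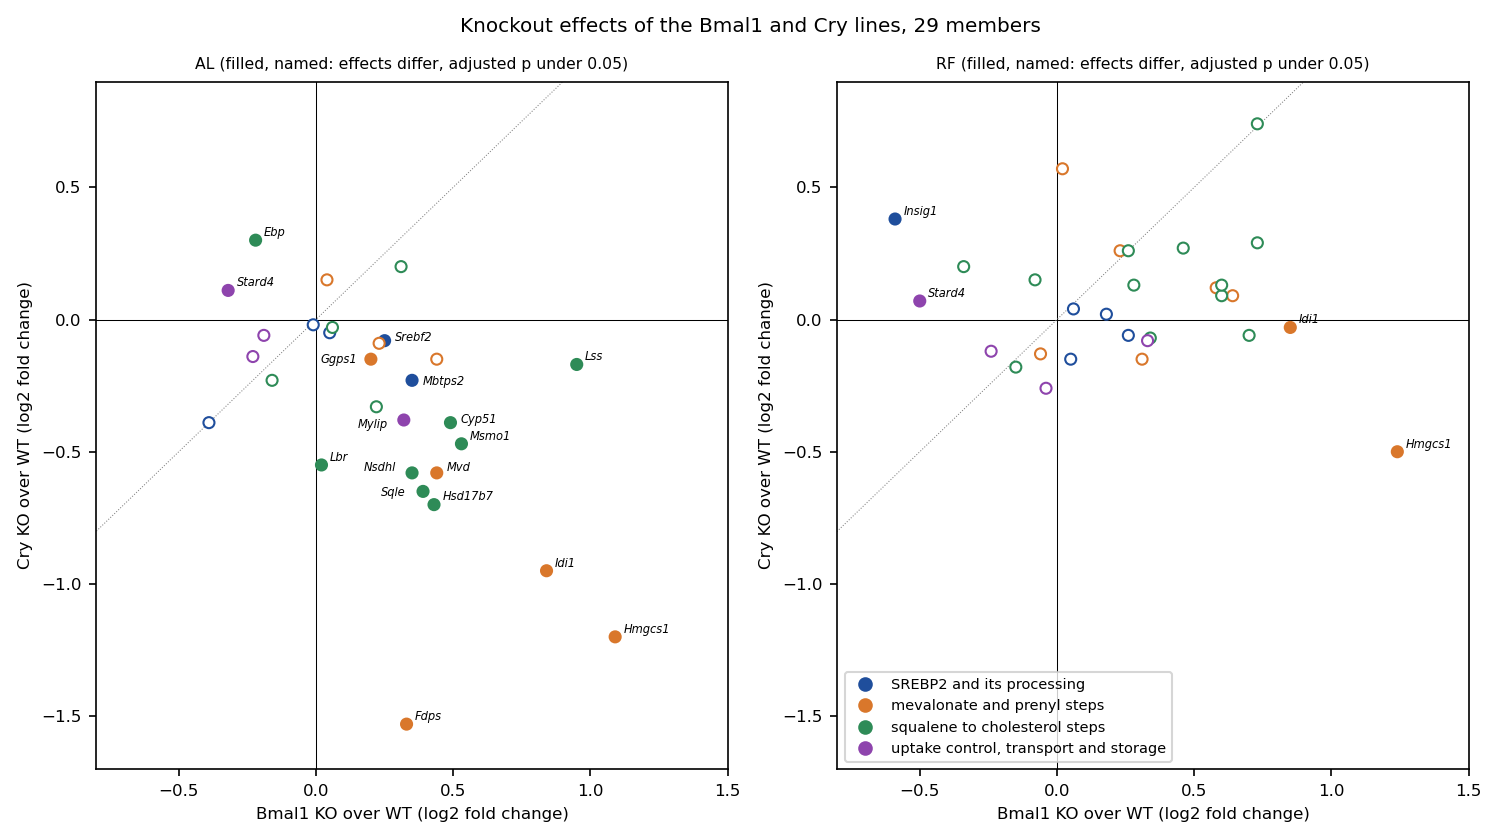
Log2 knockout effect in the Bmal1 line (x axis) against that in the Cry line (y axis) for the 29 genes, under AL and under RF; filled, named points have effects that differ between the lines at an adjusted p under 0.05. Under AL the named enzymes other than Ebp lie to the right of and below 0, with Hmgcs1 at 1.09 and -1.20; under RF the named genes are Hmgcs1, Idi1, Insig1 and Stard4.

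With series as a random effect 5 of the 17 AL differences were called (Hmgcs1, Idi1, Fdps, Hsd17b7 and Mbtps2) and none under RF, where 13 were called without the filter on low counts. Leaving out 1 series left 8 to 16 called under AL, with the fewest without series 2 of Cry WT AL. The WT groups of the lines also differed in 20.5% of all genes under AL, and in 4 members, all lower in Cry WT: Ebp by -0.40 ± 0.11 log2 (adjusted p = 0.00965), Scap by -0.26 ± 0.08 (0.0146), Soat2 by -0.31 ± 0.10 (0.0276) and Tm7sf2 by -0.39 ± 0.14 (0.0447). Of all genes 9.42% were lower and 11.1% higher. With series as a random effect none of the 4 was called. Under RF no member differed between the WT groups, against 0.856% of all genes (0.659% lower); 2 were higher and 1 lower at an unadjusted p under 0.05, and DESeq2 called 0 and the fit without the filter 1.

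Night feeding was compared with ad libitum feeding within each genotype. In Bmal1 WT, 4 members fell and 2 rose under RF, against 6.37% and 9.33% of all genes (15.7% in either direction), and the median was -0.22 log2 against 0.01. Mvk fell from 23.1 ± 6.98 to 15.9 ± 6.87 CPM (SD, n = 12; -0.58 ± 0.20 log2, adjusted p = 0.0369), Mvd from 28.7 ± 13.2 to 17.3 ± 6.84 (-0.64 ± 0.23, 0.0444) and Nsdhl from 88.7 ± 22.9 to 61.4 ± 26.1 (-0.59 ± 0.21, 0.0446). The sterol reductase gene Tm7sf2 fell from 152 ± 19.5 to 115 ± 15.4 (-0.40 ± 0.14, 0.0446). Ggps1 rose from 9.41 ± 1.44 to 11.5 ± 1.08 (0.29 ± 0.08, 0.010) and Mbtps2 from 10.1 ± 1.29 to 12.2 ± 0.903 (0.28 ± 0.09, 0.0304). At ZT 16, 16 of the 20 enzymes had both RF libraries below both AL libraries. This count describes pairs of libraries, and the share of all genes is not given here. The enzymes move together within a library: 12 of 20 had their lowest Bmal1 WT RF level in that of series 4 at ZT 16. In the main fit no member had a called rhythm difference between feedings in Bmal1 WT. With RLE scaling 3 members were called, 2 higher and 1 lower, and the calls of all genes split 1616 higher and 713 lower, against 1471 and 1005 with TMM. With series as a random effect no member was called, and without the filter on low counts 11 were, all lower. Leaving out any of the 4 series left 0 to 1 member called.

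In the other genotypes few members changed in mean level. In Bmal1 KO and in Cry WT no member was called, against 0.545% and 1.59% of all genes (0.0317% and 0.938% lower); 0 and 0 were higher and 2 and 6 lower at an unadjusted p under 0.05, and DESeq2 called 0 and 1. Without the filter on low counts 5 and 10 were called, all lower under RF. Their medians were -0.22 and -0.20 log2. By time, the differences of the enzymes in Cry WT had both directions, which an average over times can hide. At ZT 0, 17 of 20 had both RF libraries above both AL libraries and 2 both below (median 0.36 log2). At ZT 20, 0 had both above and 14 both below (median -1.0). These counts describe pairs of libraries, and the share of all genes is not given here. The enzymes move together within a library: 15 of 20 had their highest Cry WT AL level in 1 library, that of series 2 at ZT 20. In the main fit no member had a called rhythm difference between feedings in Cry WT. In Cry KO 2 members (6.9%) rose under RF, near the 5.07% of all genes called higher (13.1% lower, 18.2% in either direction). They were Hsd17b7, from 49.1 ± 11.2 to 67.7 ± 16.7 CPM (0.45 ± 0.15 log2, adjusted p = 0.026), and Insig1, from 356 ± 107 to 484 ± 161 (0.43 ± 0.15, 0.0419). The count was 8 without series 1 of Cry KO AL and 0 without series 2, without series 5 of Cry KO RF, or with series as a random effect. It was 9 without the filter on low counts, all higher under RF, and 1 without the libraries that stood apart.

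Whether the knockout effect itself depended on feeding was tested as an interaction. In the Bmal1 line no member and no other gene was called (0.0% of all genes), 0 members were higher and 1 lower at an unadjusted p under 0.05, and DESeq2 called 0. In the Cry line 3 members had a higher effect under RF and none a lower one, against 0.85% and 5.48% of all genes (6.33% in either direction). They were Fdps (1.39 ± 0.38 log2, adjusted p = 0.0248), Lss (0.91 ± 0.25, 0.0229) and Insig1 (0.76 ± 0.22, 0.0295). The median over the 29 was 0.37 against -0.01. None was called with series as a random effect, without the 7 libraries that stood apart, or without series 2 of Cry WT AL, either series of Cry WT RF, series 2 of Cry KO AL or series 5 of Cry KO RF, and 10 were called without series 1 of Cry KO AL and 11 without the filter on low counts.

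Rhythm was tested with a 24 h cosine, and a gene was called rhythmic when its fit passed an adjusted p of 0.05 and its fitted range, from trough to peak, reached 0.5 log2. In WT liver the lysosomal exporter gene Npc1 and the esterification gene Soat2 were rhythmic in all 4 groups, while the other transport and uptake genes, Stard4 and Mylip, were called in none. In Cry WT AL both calls were lost without either series, and in the other WT groups both held. Called members were 5 in Bmal1 WT AL, 6 in Bmal1 WT RF, 2 in Cry WT AL and 4 in Cry WT RF, or 17.2%, 20.7%, 6.9% and 13.8% of the 29, against 9.97%, 12.8%, 6.67% and 18.9% of all genes. Npc1 had its highest mean at ZT 8 in each WT group, at 179, 205, 150 and 229 CPM in the order above, and its lowest at 68.2, 72.2, 68.5 and 64.7. Its fitted ranges were 1.54, 1.54, 1.14 and 1.65 log2 with peaks from ZT 8.3 to ZT 9.7. Soat2 had ranges of 1.05, 1.22, 1.05 and 1.33 and peaks from ZT 6.9 to ZT 9.2.

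Hmgcs1 was the enzyme with the widest fitted range in a WT group. It peaked at ZT 2.4 in Bmal1 WT AL (range 1.96 log2, adjusted p = 0.0391) and at ZT 2.9 in Bmal1 WT RF (2.02, 0.0156). In Cry WT its ranges were 1.40 and 1.35 log2 and it was not called (0.244 and 0.132). Its time means in Bmal1 WT RF fell from 349 CPM at ZT 4 to 56.6 at ZT 16. Srebf2 was called in Bmal1 WT AL (range 0.62, peak ZT 23.1, 0.0242), Pmvk in Bmal1 WT RF (1.28, ZT 23.8, 0.0435), Sc5d in both WT RF groups (0.90 and 0.96, ZT 2.0 and ZT 2.1), and Scap in both Bmal1 WT groups and Cry WT RF (0.77, 0.76 and 1.03, ZT 6.9, 4.4 and 5.1). In Bmal1 WT AL the fitted peaks thus ran from Srebf2 late in the night over Hmgcs1 to Scap, Soat2 and Npc1 in the day.

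In the knockouts under night feeding, several enzymes had fitted peaks in the night. In Bmal1 KO RF 7 members (24.1%, against 5.26% of all genes) were rhythmic: Mvd (range 2.18 log2, peak ZT 19.8, adjusted p = 0.00648), Sqle (1.88, ZT 20, 0.0218), Hsd17b7 (1.44, ZT 19.5, 0.00321), Stard4 (1.02, ZT 20.3, 0.0084), and with daytime peaks Npc1, Soat2 and Scap (ZT 8.4, 8.3 and 8.1). In Cry KO RF 6 members (20.7%, against 6.63%) were rhythmic: Mvd (2.01, ZT 18.8, 0.0217), Nsdhl (1.60, ZT 1.1, 0.0253), Dhcr7 (1.31, ZT 22.4, 0.0361), Sc5d (1.1, ZT 22.6, 0.0136), Npc1 and Soat2 (ZT 6.4 and 6.6). In Bmal1 KO AL and Cry KO AL no member was called, against 0.0317% and 0.0% of all genes, 16 and 4 members had an unadjusted p under 0.05, and a mean per time gave 0 calls in both. These counts depended on the filter on low counts: without it 17 and 4 members were called, and 20 and 19 in Bmal1 KO RF and Cry KO RF. The median fitted range of the members was 0.90 log2 in Bmal1 KO AL against 0.29 for all genes, 1.01 against 0.41 in Bmal1 KO RF, 0.41 against 0.33 in Cry KO AL and 1.01 against 0.46 in Cry KO RF. In the WT groups it was 0.55, 0.72, 0.46 and 0.53 against 0.46, 0.46, 0.41 and 0.52.

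The fitted peaks of the 20 enzymes were also counted by window of time. They fell between ZT 17 and ZT 23 for 19 enzymes in Bmal1 KO AL, 18 in Bmal1 KO RF, 14 in Cry KO AL and 17 in Cry KO RF. In WT that held for 4 in both Bmal1 WT groups, 11 in Cry WT AL and 6 in Cry WT RF, and 11, 12, 4 and 9 peaked between ZT 0 and ZT 7. Most of these fits were not called, so the peak times are a description. In Cry KO AL, where no gene was called rhythmic, the enzymes' median range was 0.44 log2, and its 14 stand beside 11 in Cry WT AL. The enzymes move together within a library, so their peaks are not separate evidence. The share of all genes with fitted peaks in these windows is not given here.

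**Figure D4:**
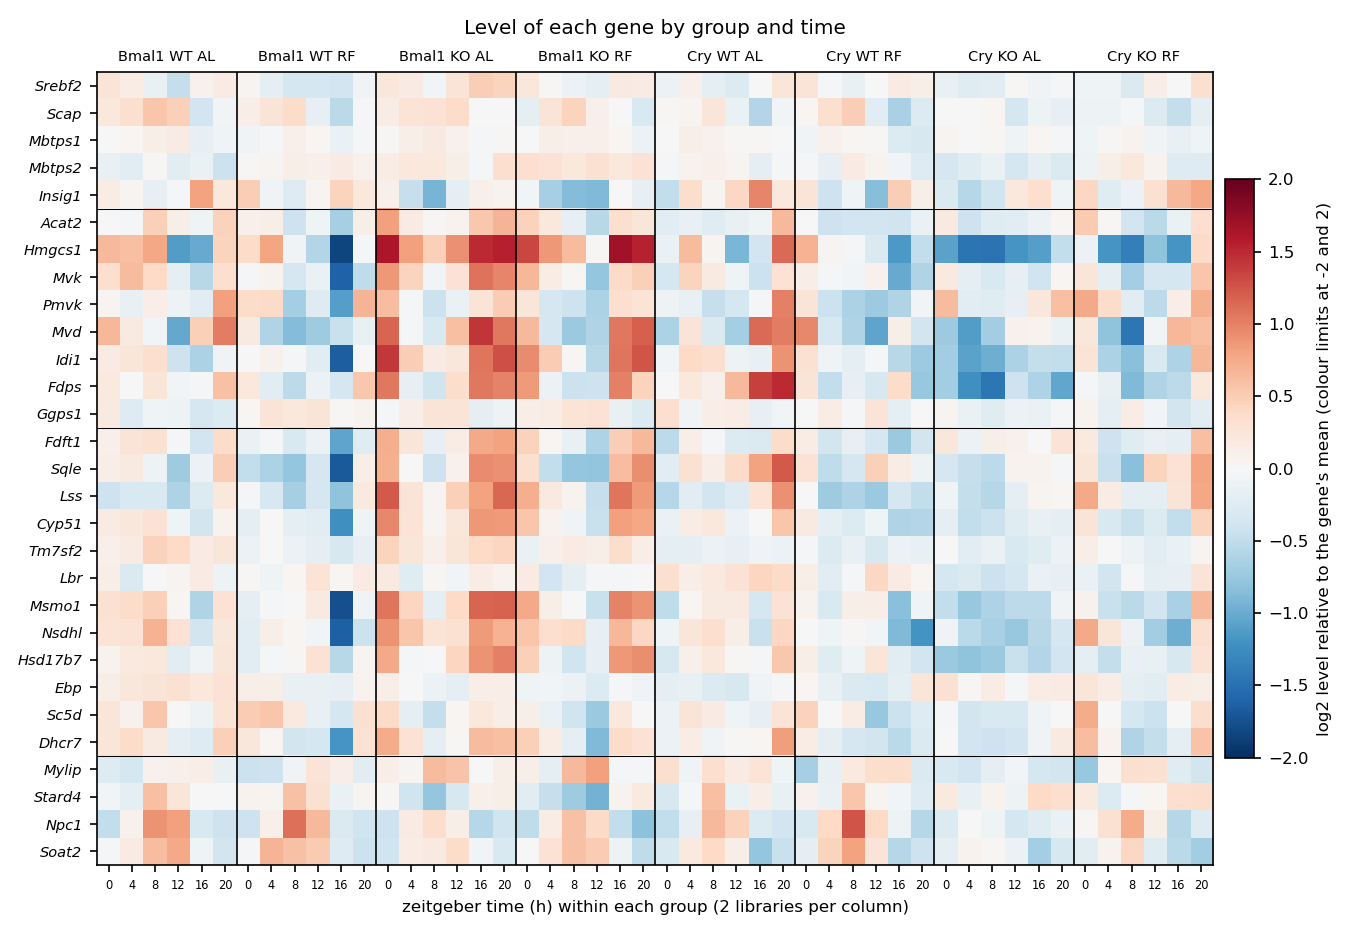
Log2 level of each of the 29 genes relative to its mean over all groups, by group (8) and zeitgeber time (6), as the mean of 2 libraries, with colours limited at -2 and 2. Npc1 and Soat2 are high around ZT 8 in every WT group, most enzymes are low at ZT 16 in Bmal1 WT RF, and most are high at ZT 16, 20 and 0 in Bmal1 KO.

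A difference of rhythm between KO and WT was called for Stard4 in both Bmal1 comparisons (adjusted p = 0.0497 under AL and 0.00716 under RF) and for Hsd17b7 under RF (0.031), against 0.767% and 1.32% of all genes. No member was called in the Cry line, against 0.913% and 2.66%, or between feedings, against at most 0.0888%. Without the filter on low counts 12 and 12 members were called in the Bmal1 line and 3 and 10 in the Cry line under AL and RF, and between feedings 4 in Cry WT, 3 in Cry KO and none in the Bmal1 groups. With it, the calls of Stard4 under AL and of Hsd17b7 were lost whichever of the 4 series was left out, and that of Stard4 under RF held only without series 2 of Bmal1 KO RF. At ZT 8, its highest time in WT, Stard4 had 213 and 271 CPM in Bmal1 WT AL against 86.6 and 98.9 in Bmal1 KO AL, and 236 and 241 in Bmal1 WT RF against 115 and 80.1 in Bmal1 KO RF. At ZT 20 it had 150 and 171 against 198 and 146, and 173 and 158 against 171 and 195. The fall of its mean level thus lay mainly in the day, and its highest time moved from ZT 8 in WT to ZT 20 in both KO groups. In the Cry line its mean at ZT 8 was 242 and 235 CPM in WT and 168 and 156 in KO.

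The rhythm calls rested on few libraries. In WT, leaving out 1 series gave 2 calls in place of 5 in Bmal1 WT AL, 2 to 3 in place of 6 in Bmal1 WT RF, 0 in place of 2 in Cry WT AL and 3 to 4 in place of 4 in Cry WT RF. Without the filter on low counts the WT groups had 10, 15, 10 and 11 calls in this order. Without either series of Cry KO RF no member was called, and in Bmal1 KO RF 4 were called without series 2 and none without series 4. In that group the series ran differently: Hmgcs1 had 844 CPM at ZT 0 in series 2 and 173 in series 4, and 308 and 872 at ZT 20. With a free mean per time in place of a cosine, 3 members were called in Bmal1 WT AL and 2 in Cry KO RF, and the rhythm differences in the Bmal1 line fell to 0 and 1.

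The pathway's other genes, from lists drawn up by function with earlier results of these data known, included a large change in the other INSIG gene. Insig2, the second SREBP retention gene, ran from 66.3 over 209 to 312 CPM in Bmal1 WT AL and had a mean of 450 CPM in Bmal1 KO AL, with no overlap between the groups. It rose by 1.34 ± 0.14 log2 (adjusted p = 2.69e-11) under AL and 1.66 ± 0.14 (3.62e-14) under RF. In the Cry line its level averaged over the times rose by 0.44 (0.00982) and 0.50 (0.0142), but not at every time. At ZT 12 its mean was 175 CPM in Cry KO AL against 52.7 in Cry WT AL, and 219 against 78.8 under RF. At ZT 0 it was lower in KO, at 153 against 239 and 234 against 325. In Cry KO AL series 2 lay above series 1 at each time, with 221 and 129 CPM at ZT 12. Insig2 was rhythmic in all 4 WT groups, with ranges of 2.06 to 2.46 log2 and peaks from ZT 0.2 to ZT 1.1. Its rhythm differed from WT in all 4 knockout comparisons. At ZT 12 it had 68.6 and 73.7 CPM in Bmal1 WT AL against 602 and 438 in Bmal1 KO AL.

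**Figure D5:**
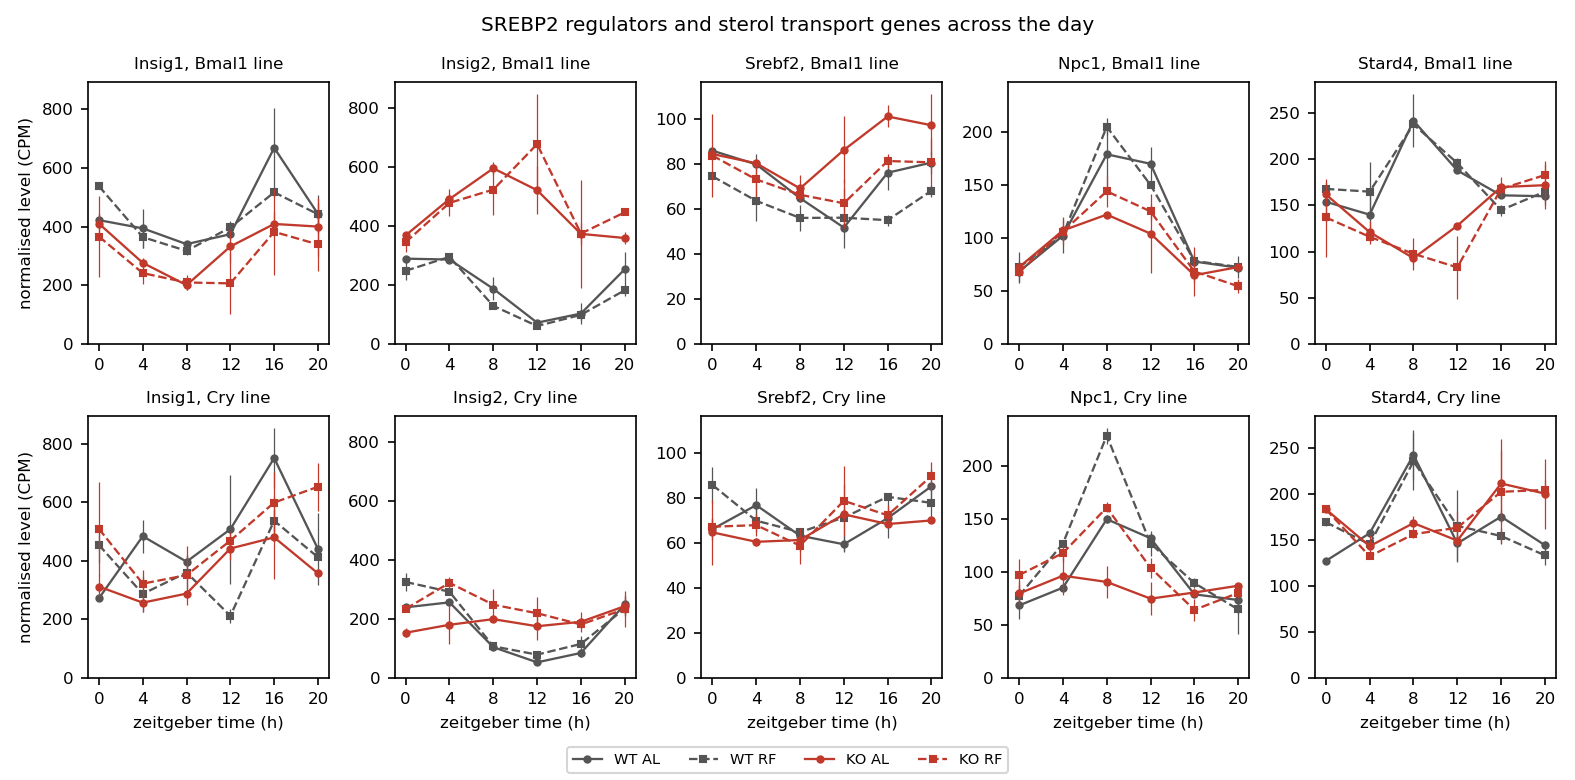
Levels in CPM of Insig1, Insig2, Srebf2, Npc1 and Stard4 by zeitgeber time, WT in grey and KO in red, AL as solid and RF as dashed lines; points are means of 2 libraries and bars span both. Insig2 is lowest near ZT 12 in WT, with a mean of 71.1 CPM in Bmal1 WT AL against 520 in Bmal1 KO AL, while Insig1 is lower in Bmal1 KO, and Stard4 lacks its ZT 8 peak there.

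Among 11 genes of sterol sensing and turnover, Bmal1 KO AL had 1 higher and 4 lower, Bmal1 KO RF 1 higher and 3 lower, and Insig2 alone was called in Cry KO AL and Cry KO RF. The shares of all genes called higher and lower were 13.7% and 10.7% in Bmal1 KO AL, 10.5% and 10% in Bmal1 KO RF, 19.7% and 13.3% in Cry KO AL and 3.28% and 3.02% in Cry KO RF, for this list and the next ones. Under RF the genes called lower included Srebf1, the gene of the related factor SREBP1, at a mean of 227 CPM in Bmal1 KO RF against 415 in WT (-0.95 ± 0.21, adjusted p = 0.000509), named after its value was seen; under AL it had -0.46 ± 0.21 (0.103). Erlin1, which acts in the degradation of endoplasmic reticulum proteins, fell in Bmal1 KO by 0.63 ± 0.08 log2 (adjusted p = 3.37e-08) and 0.81 ± 0.08 (3.22e-11). Among 12 genes of sterol traffic and storage, Bmal1 KO AL and Cry KO AL each had 3 higher and 2 lower, and each RF comparison 1 higher. Gramd1b, a sterol carrier at membrane contacts, rose in Bmal1 KO AL to a mean of 11.9 CPM against 2.95 in WT (1.99 ± 0.21, 3.67e-11) and by 2.00 ± 0.21 (3.32e-11) under RF. The biliary sterol exporter gene Abcg5 rose by 0.72 ± 0.17 (0.000707) in Bmal1 KO AL, Stard5 by 0.51 ± 0.08 (1.08e-06) and Stard3 by 0.25 ± 0.07 (0.00426) in Cry KO AL, and the lysosomal lipase gene Lipa by 0.27 ± 0.08 (0.0259) in Cry KO RF. Those called lower, named after their values were seen, were Nceh1 (-0.36 ± 0.13, 0.0399) and Stard3 (-0.23 ± 0.07, 0.0109) in Bmal1 KO AL, and Gramd1c (-0.33 ± 0.11, 0.0147) and Osbp (-0.24 ± 0.07, 0.00597) in Cry KO AL.

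In the non-sterol isoprenoid branch, Bmal1 KO AL had 3 of 11 higher and 2 lower, Bmal1 KO RF 3 higher and 1 lower, 2 rose in Cry KO AL and none was called in Cry KO RF, where the median was 0.02 log2. Of all genes 24.4%, 20.6%, 33.0% and 6.3% were called in these comparisons. Pdss2, a subunit of the enzyme that makes the ubiquinone side chain, rose by 0.42 ± 0.07 (adjusted p = 1.81e-05) and 0.48 ± 0.08 (1.6e-06) in Bmal1 KO. The prenyltransferase subunit genes Pggt1b under AL (0.28 ± 0.07, 0.00136) and Rabggtb under RF (0.40 ± 0.10, 0.00339) rose as well, and in Cry KO AL Coq2 (0.29 ± 0.08, 0.0043) and Dhdds (0.31 ± 0.09, 0.00454) did. The genes called lower, named after their values were seen, were other prenyltransferase subunit genes: Fnta in Bmal1 KO AL (-0.26 ± 0.07, 0.00323), and Rabggta under AL (-0.22 ± 0.07, 0.0106) and RF (-0.21 ± 0.07, 0.0196). Median changes of these lists in Bmal1 KO lay between -0.12 and 0.09 log2, against 0.39 and 0.44 for the 8 mevalonate enzymes and 0.33 and 0.40 for the 12 later ones.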

How the data were processed

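Poly(A)-selected liver RNA was measured by stranded mRNA sequencing (250 ng input, 11 amplification cycles, paired ends of 100 cycles), per the labels' protocols. The authors deposited raw counts per gene. STAR 2.4.0i and the build mm10 are named in the submitters' processing notes. The counting program, its strand setting and its annotation are not given in any source used here.

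The table held 55421 identifiers, of which 55154 were given a symbol from the GENCODE M21 table, and 35670 had any count. Low genes were removed with edgeR's filterByExpr over the 8 groups (count 10, total 15), which left 15772 genes and 99.94% of counts. Counts were scaled by TMM and fitted with edgeR 4.0.16 (R 4.3.3) by quasi-likelihood with a mean for each of 48 combinations of group and time, and 14 comparisons were averaged over the 6 times. Rhythm was fitted as a 24 h cosine per group. P-values were adjusted by Benjamini-Hochberg over all genes tested. A call is an adjusted p under 0.05, and a rhythm call also needs a range of 0.5 log2. The replicate numbers in the labels name the series.

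All 29 genes were named and grouped by role. Values by group were printed for those with the 5 smallest p in each direction of a knockout or feeding effect, those with the 6 widest fitted ranges in a WT group, Srebf2 and Insig1; of other lists up to 2 called genes per comparison were named. The members, lists and tests were chosen with earlier results of these data known. Alternatives were RLE scaling, no filter, DESeq2 1.42.0, limma-voom (limma 3.58.1) with series as a random effect, a replicate block, a mean per time, no minimum range, leaving out each series and, added after the data were seen, leaving out the 7 libraries that stood apart. On simulated data, the comparison of Bmal1 KO AL with WT AL recovered 44.9% of genes changed by 0.5 log2 and 85.7% of those changed by 1 log2, over 15772 genes. The rhythm test in Cry WT AL recovered 1.0% of simulated ranges of 0.5 log2 and 37.5% of 1 log2. False calls numbered 7 in the comparison of means and 0 in the rhythm test. Each simulation changed 100 genes per size in 1 group and drew libraries independently. Its rates need not hold for these data.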

Additional observations from a re-analysis of the deposited data

Results flagged for a closer look

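These values are those for which a test of the difference between groups was passed with edgeR's quasi-likelihood test and Benjamini-Hochberg adjustment, given without explanation.

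Between feedings, the Cry knockout effect was higher under RF than under AL for Fdps by 1.39 log2, for Lss by 0.91 and for Insig1 by 0.76.

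Between the lines under AL, the Cry effect minus the Bmal1 effect on mevalonate enzymes was -2.29 log2 for Hmgcs1, -1.86 for Fdps, -1.79 for Idi1, -1.02 for Mvd and -0.34 for Ggps1. On the later enzymes it was -1.14 for Hsd17b7, -1.11 for Lss, -1.04 for Sqle, -1.0 for Msmo1, -0.94 for Nsdhl, -0.89 for Cyp51, -0.57 for Lbr and 0.52 for Ebp. Of the control and transport genes, Mylip had -0.70, Mbtps2 -0.58, Srebf2 -0.33 and Stard4 0.43. Lbr, Ebp, Mbtps2, Cyp51 and Mylip were also among the 9 members that differed between the series of Cry KO AL.

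Under RF the difference between the lines was -1.75 log2 for Hmgcs1, -0.88 for Idi1, 0.96 for Insig1 and 0.56 for Stard4.

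The daily rhythm in Bmal1 KO differed from that in WT for Stard4 under AL (adjusted p = 0.0497) and RF (0.00716), and for Hsd17b7 under RF (0.031). The call of Stard4 under AL and that of Hsd17b7 were lost whichever series was left out, and that of Stard4 under RF was lost without 3 of the 4 series.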

How the results depend on the processing

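Of the 68 called differences in mean level, DESeq2 kept 67, RLE scaling 63, no filter 60, leaving out the 7 libraries that stood apart 58, and series as a random effect 9; none changed direction in these. Leaving out 1 series kept 210 of 368 calls and reversed 2, both without Cry KO AL replicate 2: Ebp to -0.14 (0.59 without replicate 1) and Mbtps2 to 0.03 (-0.63 without replicate 1). Of 33 rhythm calls, a mean per time kept 20, and leaving out 1 series kept 20 of 72.

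With series as a random effect the members called were 1 in Bmal1 KO AL and 1 in Bmal1 KO RF against WT, 2 in Cry KO AL and 0 in Cry KO RF, 0 between feedings in Bmal1 WT and in Cry KO, 0 for the dependence of the Cry effect on feeding, 0 between the WT AL groups, and 5 under AL and 0 under RF between the knockout effects of the lines. With RLE scaling 3 were called between feedings in Bmal1 WT. With DESeq2 1 was called between feedings in Cry WT and 6 for the dependence of the Cry effect on feeding. Without the libraries that stood apart, a setting chosen after seeing the data, these were 6 in Cry KO AL, 1 between feedings in Cry KO and 0 for the dependence of the Cry effect on feeding.

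Without a filter on low counts more members were called: 15 in Bmal1 KO AL, 4 in Cry KO RF, 11, 5, 10 and 9 between feedings in Bmal1 WT, Bmal1 KO, Cry WT and Cry KO, 11 for the dependence of the Cry effect on feeding, 1 between the WT RF groups and 13 between the knockout effects of the lines under RF. Rhythm calls without the filter were 10, 15, 17 and 20 in Bmal1 WT AL, WT RF, KO AL and KO RF, and 10, 11, 4 and 19 in the same groups of the Cry line. Rhythm differences were then 12 and 12 for Bmal1 KO under AL and RF, 3 and 10 for Cry KO, 4 between feedings in Cry WT and 3 in Cry KO. The cause was not tested. With a mean per time, rhythm calls were 3 in Bmal1 WT AL and 2 in Cry KO RF, and rhythm differences 0 and 1 for Bmal1 KO under AL and RF.

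Leaving out 1 series gave 4 to 5 members in Bmal1 KO AL, 5 to 8 in Bmal1 KO RF, 5 to 12 in Cry KO AL and 0 to 2 in Cry KO RF. Between feedings it gave 0 to 1 in Bmal1 WT, 0 to 0 in Bmal1 KO, 0 to 1 in Cry WT and 0 to 8 in Cry KO, and for the dependence on feeding 0 to 0 in the Bmal1 line and 0 to 10 in the Cry line. Between the lines it gave 0 to 3 for WT AL, 0 to 1 for WT RF, 8 to 16 for the effects under AL and 2 to 4 under RF. Rhythm calls ranged from 2 to 2, 2 to 3, 0 to 0 and 0 to 4 in Bmal1 WT AL, WT RF, KO AL and KO RF, and 0 to 0, 3 to 4, 0 to 0 and 0 to 0 in the Cry line; rhythm differences ranged from 0 to 1 for Bmal1 KO RF and were 0 in the other comparisons.

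With the replicate block the Bmal1 counts were 8 under AL, 13 under RF and 0 for the dependence on feeding. Series intercepts as a replicate block gave 12 rhythm calls in Cry KO RF. Of 12 correlations between same-numbered Bmal1 libraries, from -0.073 to 0.223, 5 were over 0.1. These values do not show what same-numbered libraries share beyond the number. In the Cry line the groups share fewer than 2 numbers and no paired fit was made.

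The shallowest libraries held 1478963, 2694543 and 3181499 counts. On simulated data with 2 libraries per time, changes of 0.5 log2 and rhythms of 0.5 or 1 log2 were often not recovered.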
